A study of Mus musculus with 6 samples.

Results

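Cytosolic ribosomes are built from a large 60S and a small 40S subunit, and each subunit consists of ribosomal RNA and a set of ribosomal proteins. The genes of these proteins were followed here in mouse dendritic cells left unstimulated, exposed to reactive oxygen species (ROS) generated by light, or given lipopolysaccharide (LPS). They were taken by symbol, as Rpl and Rplp genes for the 60S subunit and Rps genes and Rpsa for the 40S subunit, without ribosomal S6 kinases, Rps19bp1 and pseudogenes, and a gene with several probes was read from the one that was brightest on average over all arrays. This gave 56 genes (34 of the 60S and 22 of the 40S subunit) among 7989 genes with a named probe. The 56 genes had 64 probes, and 7 genes had more than 1. All 56 passed the filter on dim probes, and 54 were detected on all 6 arrays. The genes were taken from the authors' log2 table, which lists only probes detected on at least 3 arrays. This pass rate was thus largely set in advance.

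Dendritic cells take up and present antigens, and were grown for 6 days with GM-CSF and IL-4 (1.5 ng/ml each) from bone marrow of Rag2 knockout mice aged 6 weeks (C57BL/10NAGCSnAi background), so that every group, the unstimulated one included, lacks Rag2, a gene needed to make mature T and B cells. The ROS group received hematoporphyrin, a porphyrin that makes ROS when lit, at 1 µg/ml for 1 h, then 3 min of light with wavelengths of 450 to 600 nm and a peak at 515 nm, at 3.1 mW on each square cm, and 18 h of culture. The LPS group received 1 µg/ml of LPS, a bacterial cell wall component that activates dendritic cells, for 18 h. Each group had 2 arrays, and the labels do not say whether unstimulated cells met hematoporphyrin or light, nor how long they were kept after the 6 days. Whether the 2 arrays of a group stand for separate cultures or mice is not recorded, so every p-value here rests on a spread that may be technical only.

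Ribosomal protein genes are among the most strongly expressed genes of growing cells. Most of their products are needed in similar numbers and are assembled largely in the nucleolus with the help of ribosome biogenesis factors. Many of their messenger RNAs begin with a C followed by a run of pyrimidines, and through this start the kinase mTOR controls their translation. Some of the proteins also act away from the ribosome, for example by holding back Mdm2, the inhibitor of p53.

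The starts of these genes carry the pyrimidine feature to different extents, and sequences are shown first so that the changes can be read against them. Promoters from RefSeq (assembly GRCm38.p6), from 250 bases before to 50 bases after the annotated start, were found for 48 of the 56 genes. A C at the annotated start followed by 4 bases that were all C or T occurred in 8 of the 48 genes (16.7%) and in 2.49% of all 27025 promoters of the table. The 30 bases around the start (10 before it and 20 from it on) are given for these 8 genes, with the first 5 bases from the start in capitals.
Rpl28 (chr7:4792955-4792984, plus strand): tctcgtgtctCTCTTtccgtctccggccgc
Rpl35 (chr2:39005112-39005141, minus strand): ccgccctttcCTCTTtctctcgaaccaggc
Rpl38 (chr11:114668570-114668599, plus strand): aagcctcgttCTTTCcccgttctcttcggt
Rps6 (chr4:86857348-86857377, minus strand): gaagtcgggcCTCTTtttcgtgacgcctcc
Rps10 (chr17:27635225-27635254, minus strand): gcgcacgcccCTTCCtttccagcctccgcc
Rps15a (chr7:118116128-118116157, minus strand): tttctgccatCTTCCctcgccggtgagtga
Rps21 (chr2:180257369-180257398, plus strand): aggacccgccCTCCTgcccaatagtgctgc
Rps27 (chr3:90213629-90213658, minus strand): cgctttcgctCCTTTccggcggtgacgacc

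The genes that moved most are shown with the 120 bases before and 30 bases from the annotated start, and again the first 5 bases from the start are in capitals. Rpl24 had the largest rise in every comparison, Rpl5 the largest fall after ROS, and Rpl3l the largest fall after LPS.
Rpl24 (chr16:55966155-55966304, plus strand): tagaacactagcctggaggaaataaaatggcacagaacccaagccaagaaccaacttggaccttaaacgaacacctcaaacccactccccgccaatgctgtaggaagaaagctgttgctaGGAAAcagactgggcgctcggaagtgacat
Rpl5 (chr5:107900408-107900557, plus strand): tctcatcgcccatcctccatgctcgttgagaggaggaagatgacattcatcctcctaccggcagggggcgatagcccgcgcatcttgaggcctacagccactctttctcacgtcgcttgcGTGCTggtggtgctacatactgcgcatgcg
Rpl3l (chr17:24727706-24727855, plus strand): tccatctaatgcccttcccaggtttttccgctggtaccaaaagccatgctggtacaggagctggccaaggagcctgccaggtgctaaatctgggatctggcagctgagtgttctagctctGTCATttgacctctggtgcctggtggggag
The starts of Rpl7l1 and Rps27l, paralogs whose changes stood apart from those of most members, are given as 30 bases in the same way as those of the 8 genes above.
Rpl7l1 (chr17:46782637-46782666, minus strand): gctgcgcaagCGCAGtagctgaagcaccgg
Rps27l (chr9:66946076-66946105, plus strand): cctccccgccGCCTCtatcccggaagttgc

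On the arrays, the mean raw signal per probe was 765 and 704 on the unstimulated arrays, 626 and 643 on the ROS arrays, and 545 and 529 on the LPS arrays. The LPS arrays were thus the dimmest, and they also detected the fewest probes, 10428 and 10485 of 25697 against 11251 to 11438 on the other 4 arrays. Of 12 dendritic cell markers 10 had a probe in the authors' log2 table. They included the class II gene H2-Aa and the transcription factor gene Zbtb46. Of these 10, 9 were detected on all 6 arrays and Itgax, the gene of CD11c, on 5. As the table lists only probes detected on at least 3 arrays, this was partly set in advance, and unlisted markers may be undetected ones. Here and below, a gene counted as measured, or as having a probe, only if it was listed there. Replicate arrays correlated across the 56 genes at r = 0.996, 0.995 and 0.996 in the unstimulated, ROS and LPS groups, as a description across genes that are not independent replicates. Values below are log2 intensities after background correction and quantile normalisation unless raw signal is named. Errors of changes are standard errors of the limma fit with n = 2 arrays per group, and adjusted p-values are limma's with Benjamini-Hochberg adjustment over all kept probes.

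After LPS the ribosomal protein genes were lower almost as a whole, and after ROS most showed no change that passed the test. Against unstimulated cells 46 of the 56 genes fell after LPS (82.1%), where 29% of all 7896 tested genes fell, and 2 rose, where 24.7% of all genes rose. Their median log2 change was -0.97, and that of all genes was -0.05. After ROS 5 rose, where 21.8% of all genes rose, and 3 fell, where 18% of all genes fell. The median log2 change after ROS was 0.03 beside 0.05 for all genes, and it turned to -0.13 under median scaling and -0.23 with no scaling between arrays. Against ROS, 46 genes were lower in LPS cells and 1 was higher, where 30.9% and 24.9% of all genes were, with a median of -1.01 beside -0.08 for all genes. The comparisons with LPS share the LPS arrays and those against unstimulated cells share the unstimulated arrays, so they are not independent of each other. In such bulk samples fewer cells of a type and less RNA per cell cannot be told apart.

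In the raw signals, before quantile normalisation, the LPS arrays were again the lowest. The probes of the 56 genes took 4.50% and 4.62% of the summed signal on the unstimulated arrays, 4.65% and 4.56% on the ROS arrays, and 2.90% and 2.75% on the LPS arrays. In this share, which is relative to the total of each array, the ROS and unstimulated arrays overlapped. Both LPS arrays lay well below all 4 others. The group means were 4.56% ± 0.0841, 4.60% ± 0.0632 and 2.82% ± 0.108 (SD, n = 2 each). The median raw signal of the 56 genes was 11252 and 10298 in unstimulated, 8000 and 8543 in ROS and 3789 and 3456 in LPS cells. In this measure, which is not relative to the array total, the ROS arrays lay below the unstimulated ones. By rank among all probes the median gene lay at the 99.0th percentile of each unstimulated and ROS array, and at the 97.5th and 97.4th percentile of the LPS arrays.

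**Figure D1:**
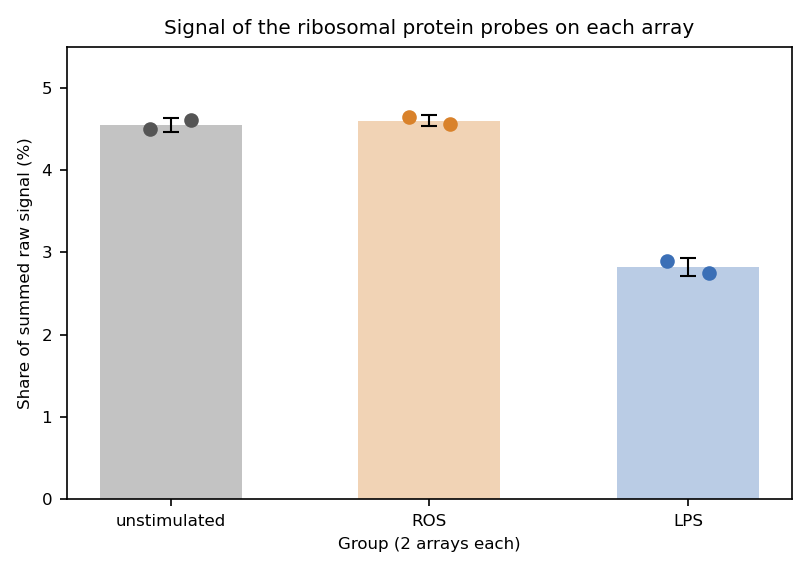
Share of the summed raw signal of each array, in percent, that came from the probes of the 56 ribosomal protein genes. Points are single arrays, bars are group means and error bars are SD (n = 2 per group). The unstimulated and ROS arrays lie between 4.50% and 4.65%, and the LPS arrays are at 2.90% and 2.75%.

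Scaling between the arrays matters for the size of the LPS change, since the LPS arrays had the lowest mean and median raw signals. Their highest signals, 61381 and 61108, were not the lowest, as that of ROS 2 was 58168. Under median scaling the log2 change of the median gene moved by -0.47 for all genes, and with no scaling by -0.71. The ribosomal protein genes had medians of -1.22 and -1.46 under these scalings. Relative to the median of all genes they lay at -0.93 in the main setting and at -0.70 under either of the others. The number that fell after LPS was 51 under median scaling and 53 with no scaling, while all genes then had 4179 and 5182 falls of 7896 in place of 2292.

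**Figure D2:**
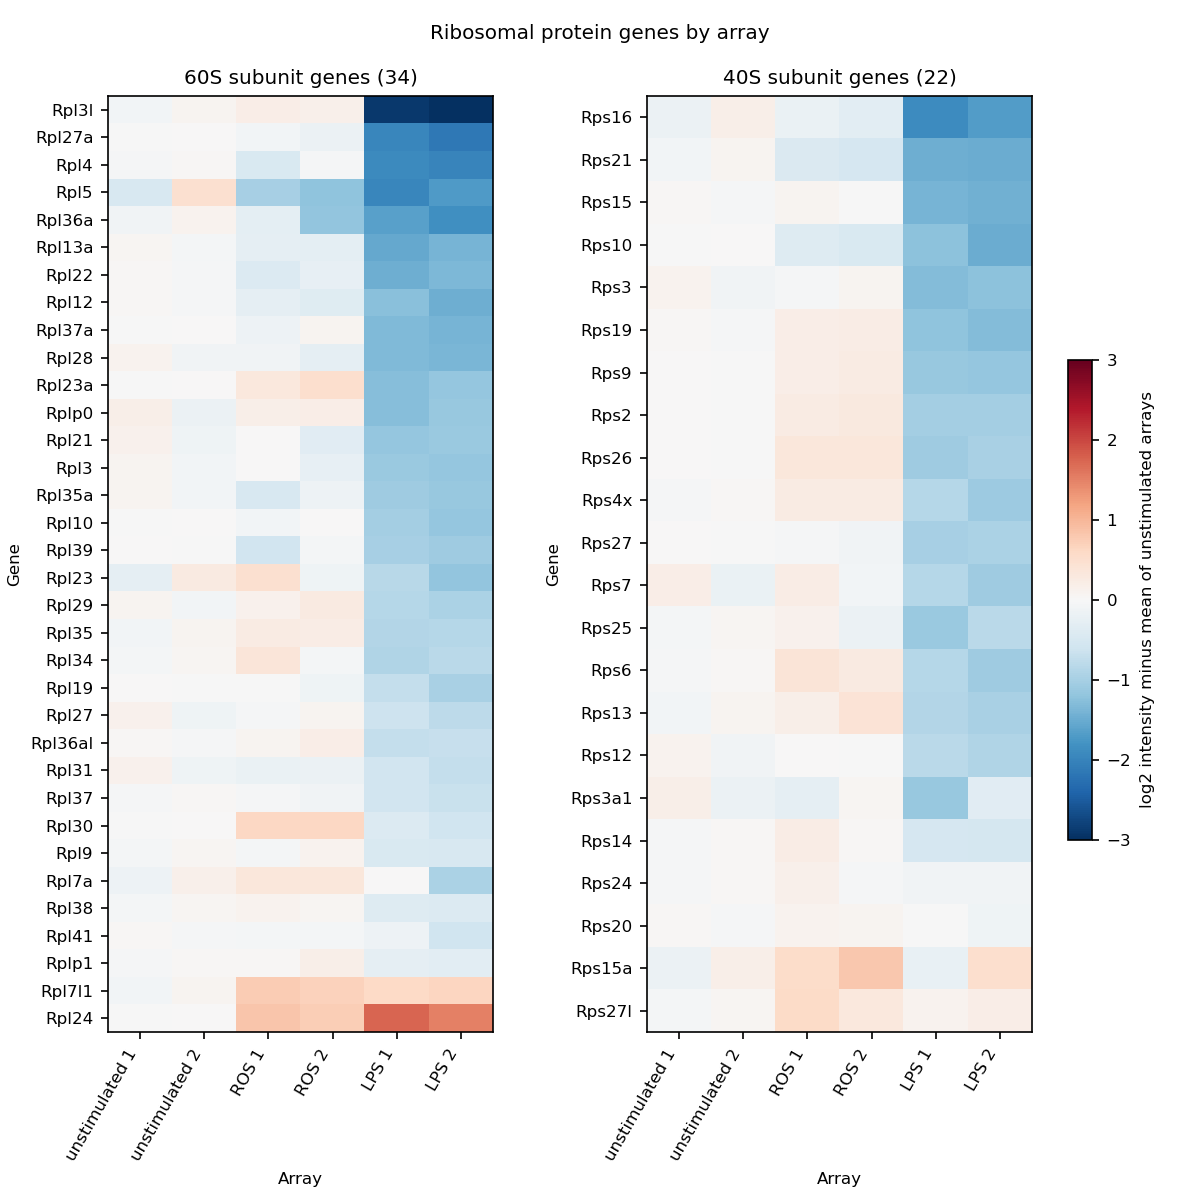
log2 intensity of each ribosomal protein gene (1 row a gene, 60S genes left and 40S genes right) on each of the 6 arrays, minus the mean of the 2 unstimulated arrays, with the colour scale in log2 units. Genes are ordered by their change after LPS. The 2 LPS columns are blue for most genes, and Rpl24 and Rpl7l1 at the foot of the left panel are the exceptions that passed the test upwards, although Rpl7l1 turned to -0.11 after LPS with no scaling between arrays.

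Among the 60S genes 29 of 34 fell after LPS and 2 rose (median -1.02), and the median stayed below 0 under both other scalings (-1.22 and -1.46). Rpl3l, a paralog of Rpl3 known mainly from heart and skeletal muscle, had log2 values of 10.29 and 10.46 in unstimulated, 10.57 and 10.53 in ROS and 7.48 and 7.27 in LPS cells. Its raw signals were 1749 and 1727, 1686 and 1716, and 249 and 226 in the same order. The LPS arrays stood apart from the other 4, which differed little. The change after LPS was -3.00 ± 0.13 (adjusted p = 2.26e-05), the largest of the 56 genes. Its parent gene Rpl3, which encodes a core protein near the peptidyl transferase centre, changed by -1.13 ± 0.14 (adjusted p = 0.00111). Whether the Rpl3l probe, or any other probe here, also binds transcripts of a paralog or of one of the many processed pseudogenes of this family was not tested.

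Rpl27a and Rpl4, both structural proteins of the large subunit, followed. Rpl27a had log2 values of 9.61 and 9.61, 9.53 and 9.44, and 7.64 and 7.47 in unstimulated, ROS and LPS cells, a change of -2.05 ± 0.12 after LPS (adjusted p = 5.83e-05). Rpl4, which lines the exit tunnel of the ribosome, had 10.69 and 10.76, 10.27 and 10.70, and 8.81 and 8.73, a change of -1.95 ± 0.17 (adjusted p = 0.000254). For both genes the LPS arrays did not overlap with any other array. Rpl36a fell by 1.73 ± 0.29 (adjusted p = 0.00393), with ROS arrays at 11.04 and 10.14 that differed from each other by more than the replicates of either other group. Its retrogene Rpl36al, which encodes a nearly identical protein, changed by -0.71 ± 0.11 (adjusted p = 0.00305).

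Rpl5 encodes a protein that binds the 5S ribosomal RNA and, with it, can bind Mdm2. Its log2 values were 11.81 and 12.75 in unstimulated, 11.30 and 11.08 in ROS and 10.32 and 10.58 in LPS cells. The 2 unstimulated arrays lay further apart than for any other gene named here, with raw signals of 4593 and 7709, but both were above all ROS and LPS arrays. The change was -1.09 ± 0.31 after ROS (adjusted p = 0.0342) and -1.83 ± 0.31 after LPS (adjusted p = 0.00378). The ROS call was lost in 5 of 16 alternatives. These were an offset of 1, no filter, and leaving out unstimulated 2 (-0.62), ROS 1 (-1.20) or ROS 2 (-0.99). The LPS call held in all 16 alternatives, from -2.47 to -1.36.

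The ribosomal stalk, which recruits elongation factors, is built from the products of Rplp0, Rplp1 and Rplp2, and 2 of the 3 genes were measured. Rplp0 had log2 values of 8.81 and 8.45, 8.80 and 8.84, and 7.37 and 7.50 in unstimulated, ROS and LPS cells, and it changed by -1.20 ± 0.15 after LPS (adjusted p = 0.00129). Rplp1 had 15.71 and 15.77, 15.77 and 15.91, and 15.48 and 15.42. The LPS arrays were the lowest for both, but the change of Rplp1 after LPS was -0.30 ± 0.11 and did not pass (adjusted p = 0.0727, 0.00356 to 0.226 over the alternatives). With raw signals of 59095 and 58430 in unstimulated cells, Rplp1 was close to the highest signals of those arrays, 64231 and 63707.

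The other 60S genes with roles known outside the ribosome also fell after LPS. Rpl13a, which in human monocytes joins a complex that silences inflammatory messenger RNAs, had log2 values of 10.16 and 10.05, 9.84 and 9.80, and 8.57 and 8.71 in unstimulated, ROS and LPS cells. It changed by -1.46 ± 0.12 after LPS (adjusted p = 0.000202), with no overlap between the LPS arrays and the others. Rpl22, needed for early lymphocyte development in mice, changed by -1.42 ± 0.12 (adjusted p = 0.000252). Rpl23, another Mdm2 binder, changed by -1.0 ± 0.28 (adjusted p = 0.0241), a call lost without unstimulated 2 (-0.74) or without LPS 2 (-0.83). Rpl38, which in mice promotes translation of Hox messenger RNAs, changed by -0.40 ± 0.11 (adjusted p = 0.0245), and this call was lost in 5 of 16 alternatives. Over the 11 measured members of the list of such genes in both subunits, 10 fell after LPS and 0 rose, with a median of -1.26. The list was named with results of these data known and is no independent evidence.

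Rpl24 was the 1 ribosomal protein gene that rose in every comparison. It encodes a protein that joins the 60S subunit late in its assembly and reaches towards the 40S subunit. The log2 values were 7.72 and 7.74 in unstimulated, 8.55 and 8.48 in ROS and 9.46 and 9.25 in LPS cells, with raw signals of 419 and 394, 529 and 516, and 633 and 551. The 3 groups did not overlap on either scale. Rpl24 was dim for this family, as 1 of the 7 members with a mean log2 intensity under 9 (8.53). The change was 0.79 ± 0.12 after ROS (adjusted p = 0.0046) and 1.63 ± 0.12 after LPS (adjusted p = 0.000166), and both calls held in all 16 alternatives, at 0.53 to 0.83 and 0.79 to 1.73. LPS cells were above ROS cells by 0.84 ± 0.12 (adjusted p = 0.002), a call lost with no scaling between arrays (0.25, adjusted p = 0.191).

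Rpl7l1, a paralog of Rpl7, had log2 values of 9.78 and 9.93 in unstimulated, 10.62 and 10.55 in ROS and 10.46 and 10.49 in LPS cells. Both treated groups were above the unstimulated arrays and close to each other. After ROS it rose by 0.73 ± 0.11 (adjusted p = 0.00472), and the call held in all 16 alternatives. After LPS the change was 0.62 ± 0.11 (adjusted p = 0.0056), but it was 0.13 under median scaling (adjusted p = 0.39) and -0.11 with no scaling (adjusted p = 0.513). Its raw signals of 1298 and 1264 in unstimulated and 1194 and 1184 in LPS cells show how close these groups were before scaling.

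Among the 40S genes 17 of 22 fell after LPS and 0 rose, with a median of -0.97 (-1.21 and -1.45 under median and no scaling). Rps16, a protein near the decoding site, had log2 values of 13.04 and 13.39, 13.00 and 12.89, and 11.32 and 11.53 in unstimulated, ROS and LPS cells. The LPS arrays were far below the rest, and the change of -1.79 ± 0.16 (adjusted p = 0.000319) was the largest fall of this subunit. Rps21 and Rps15 changed by -1.48 ± 0.11 and -1.41 ± 0.11 (adjusted p = 0.000182 and 0.000184). Rps27, close to the median of all 56 genes, had 13.09 and 13.08, 13.05 and 12.99, and 12.09 and 12.14, a change of -0.97 ± 0.11 (adjusted p = 0.000712). Rps4x (-0.98 ± 0.12) and Rps7 (-0.96 ± 0.18) were equally typical and also fell (adjusted p = 0.00129 and 0.00625).

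Several 40S proteins are known from disease or signalling. Rps6, the substrate of S6 kinase that is used as a readout of mTOR activity, had log2 values of 13.63 and 13.69 in unstimulated, 14.05 and 13.94 in ROS and 12.81 and 12.60 in LPS cells. The LPS arrays were lowest and the ROS arrays highest. In the main setting only the change after LPS passed (-0.95 ± 0.13, adjusted p = 0.00151, against 0.33 ± 0.13, adjusted p = 0.082, after ROS). The ROS change passed as a rise in 3 of 16 alternatives. Rps19, mutated in the human anaemia of Diamond and Blackfan, and Rps3, which also repairs DNA and binds the NF-kappaB subunit p65, changed by -1.26 ± 0.11 and -1.26 ± 0.13 after LPS (adjusted p = 0.000276 and 0.000506). Rps14, whose loss in human bone marrow causes the anaemia of the 5q minus syndrome, changed by -0.51 ± 0.12 (adjusted p = 0.0122), and this call was lost without either unstimulated array.

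After LPS 8 genes did not pass the test in the main setting, and this number depended on the scaling. Under median scaling 32 of 34 genes of the 60S and 19 of 22 of the 40S subunit fell, and with no scaling 32 and 21. Rps20 had log2 values of 15.42 and 15.37 in unstimulated, 15.50 and 15.48 in ROS and 15.39 and 15.25 in LPS cells, a change of -0.07 ± 0.11 after LPS (adjusted p = 0.627). Rps24 changed by -0.10 ± 0.12 (adjusted p = 0.505), and Rps27l, a p53 target and paralog of Rps27, by 0.14 ± 0.13 (adjusted p = 0.404). Over the 16 alternatives Rps20 ranged from -0.55 to -0.00079 and passed as a fall in 1, and Rps27l ranged from -0.26 to 0.21. LPS and unstimulated arrays overlapped for Rps20 and lay close together for Rps24 and Rps27l, while the parent gene Rps27 was among those that fell. The other 5 were Rps15a (0.14), Rplp1 (-0.30), Rpl41 (-0.37), Rpl7a (-0.47) and Rps3a1 (-0.74). Rpl7a and Rps15a were dim, with raw signals of 151 to 297, and their LPS replicates differed, with log2 values of 5.97 and 5.03 for Rpl7a and 6.23 and 6.94 for Rps15a.

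**Figure D3:**
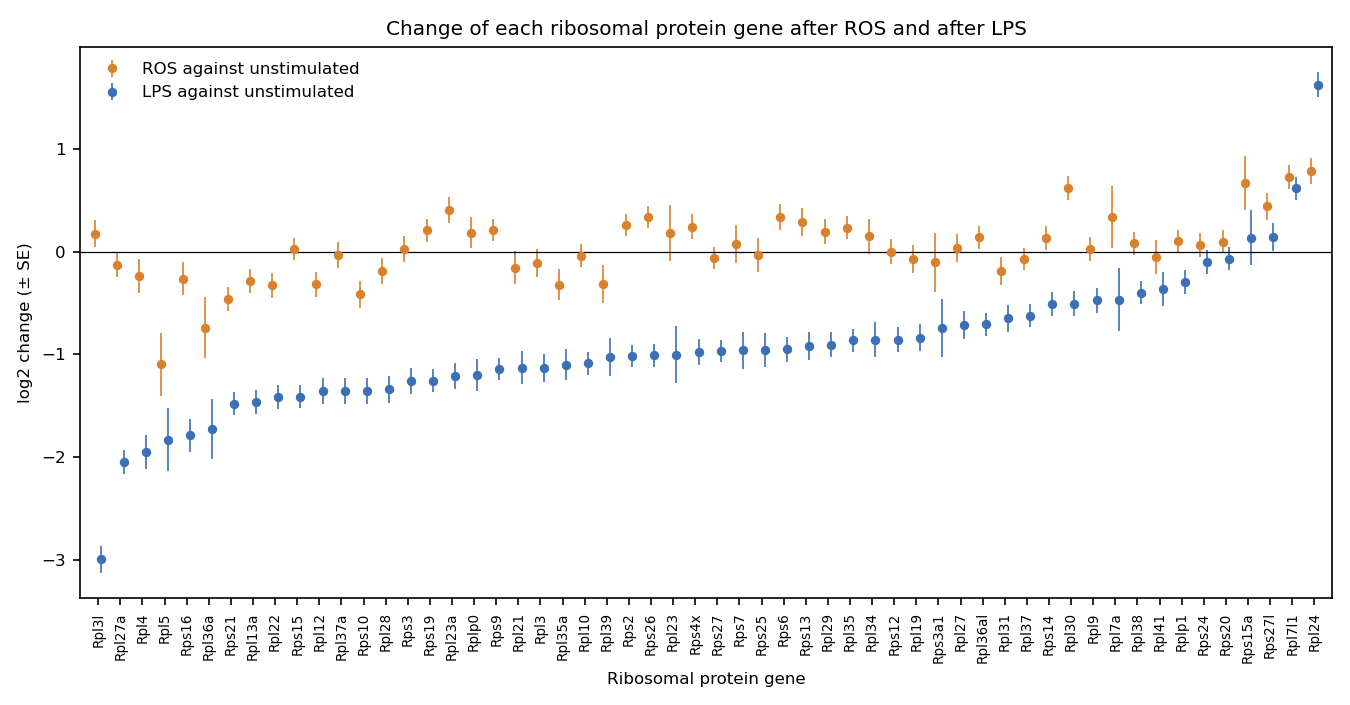
log2 change of each of the 56 ribosomal protein genes after ROS (orange) and after LPS (blue) against unstimulated cells, with error bars of 1 SE of the limma fit (n = 2 arrays per group). Genes are ordered by the LPS change. The LPS points run from -3.00 for Rpl3l to 1.63 for Rpl24, and the ROS points from -1.09 for Rpl5 to 0.79 for Rpl24.

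The LPS change was set beside the brightness of the probe. Of the 15 genes with a mean log2 intensity of at least 14, 10 fell, with a median of -0.62. Of the 34 genes from 9 to 14, 33 fell and 1 rose, with a median of -1.12. Of the 7 genes under 9, 3 fell and 1 rose, with a median of -0.74. Over all 56 genes brightness and the LPS change correlated at Pearson r = 0.0843 and Spearman rho = 0.323. Across the 49 genes with a mean of at least 9, brightness and the LPS change correlated at Pearson r = 0.487 and Spearman rho = 0.538, a description across genes that share the same 6 arrays. Among these 49 genes the brightest were the least changed. The part of signal compression near the top of the scale was not tested. Of 487 other genes with a mean above 12, 176 fell and 131 rose after LPS, with a median of -0.10.

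**Figure D4:**
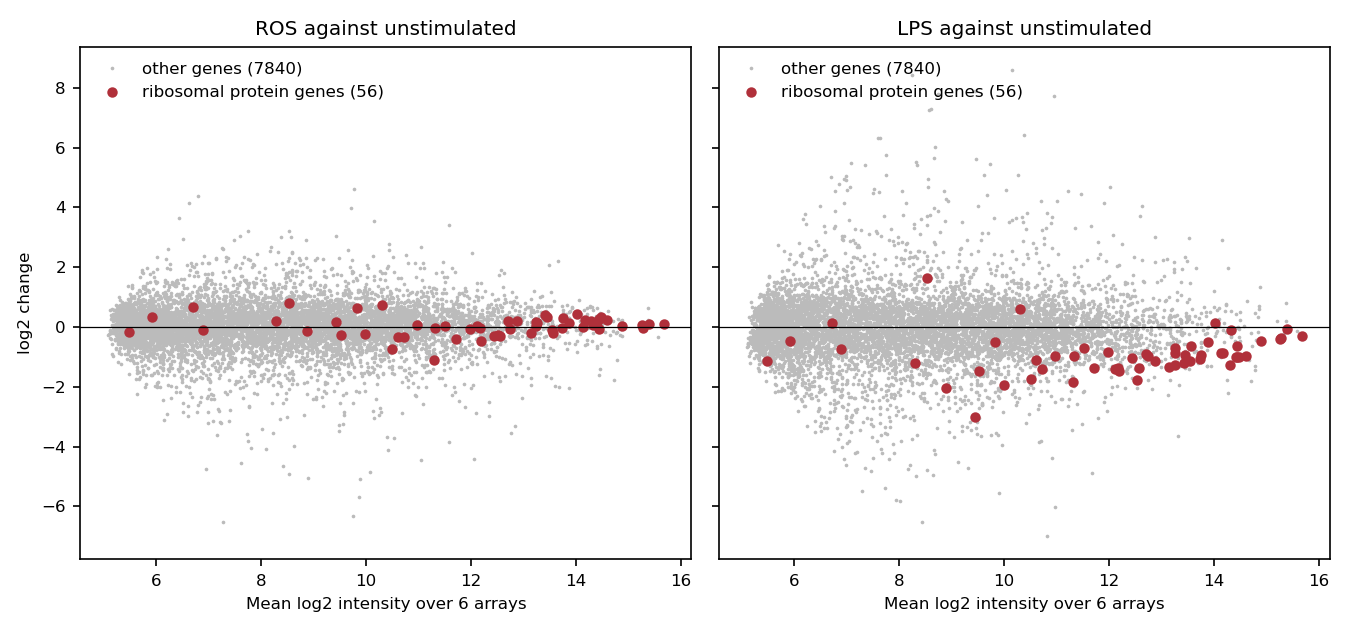
log2 change against mean log2 intensity over the 6 arrays for the 56 ribosomal protein genes (red) and 7840 other genes (grey), after ROS (left) and after LPS (right). In the right panel the red points above an intensity of 9 lie mostly between -2 and 0 and approach 0 at the bright end. In the left panel they lie close to 0, with a median of 0.03 that turned to -0.13 and -0.23 under the other scalings.

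The probes not used for the counts pointed the same way after LPS. The 8 further probes, of 7 genes, had log2 changes from -1.52 (Rpl31) to -0.29 (Rpl38) after LPS, and 6 of them passed as falls. The second Rpl31 probe changed by -1.52 ± 0.16, while the brighter one used above gave -0.65 ± 0.13. After ROS the probes of 3 genes differed. A dim second probe of Rpl38 was higher by 1.09 ± 0.19 (adjusted p = 0.00647), where the bright probe gave 0.08 ± 0.11. A second probe of Rpl23 was lower by 0.79, at -0.79 ± 0.12 (adjusted p = 0.00436), where the member probe gave 0.18 ± 0.28, and a second probe of Rps3 gave -0.49 ± 0.12 (adjusted p = 0.0236), where the member probe gave 0.02 ± 0.13. For these 3 genes the ROS result depends on the probe.

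The 5 rises after ROS were those of Rpl24 and Rpl7l1, described above, and of Rpl30, Rps27l and Rpl23a. Rpl30, which in yeast binds its own transcript and blocks its splicing, had log2 values of 9.79 and 9.79 in unstimulated, 10.41 and 10.42 in ROS and 9.39 and 9.18 in LPS cells. The 3 groups did not overlap, and Rpl30 passed in opposite directions, with 0.62 ± 0.12 after ROS (adjusted p = 0.00956) and -0.51 ± 0.12 after LPS (adjusted p = 0.0141). Its ROS call was lost with no scaling (adjusted p = 0.089) and without unstimulated 1 or unstimulated 2 (adjusted p = 0.0548 and 0.0545). Rps27l rose by 0.44 ± 0.13 (adjusted p = 0.0442) and Rpl23a, which sits at the exit of the peptide tunnel, by 0.41 ± 0.12 (adjusted p = 0.0427). These calls were lost in 10 and 11 of the 16 alternatives.

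Beside Rpl5, the genes that fell after ROS were Rps21 and Rps10, both at the surface of the small subunit. Rps21 had log2 values of 12.77 and 12.91 in unstimulated, 12.41 and 12.35 in ROS and 11.38 and 11.35 in LPS cells, so that the groups formed 3 separate steps. Its change after ROS was -0.46 ± 0.11 (adjusted p = 0.0228), lost in 4 of 16 alternatives. Rps10 had 12.29 and 12.33, 11.93 and 11.85, and 11.08 and 10.83, with the same order of groups, and changed by -0.42 ± 0.13 (adjusted p = 0.0463), lost in 7 of 16.

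Set directly against ROS, LPS cells had lower values of most of these genes. The largest differences were those of Rpl3l (-3.18 ± 0.13), Rpl27a (-1.93 ± 0.12), Rpl4 (-1.71 ± 0.17), Rpl23a (-1.62 ± 0.12), Rps16 (-1.52 ± 0.16) and Rps19 (-1.46 ± 0.11), with adjusted p-values from 1.77e-05 to 0.000517. Rpl34, Rps21 and Rpl3 lay nearest the median, at -1.01 ± 0.17, -1.02 ± 0.11 and -1.02 ± 0.14. Rpl21, which was not well above background on either LPS array, was at least 1.36-fold lower in LPS than in unstimulated cells and at least 1.22-fold lower than in ROS cells (adjusted p = 0.00198 and 0.00321). By subunit, 29 of 34 genes of the 60S and 17 of 22 of the 40S subunit were lower, with medians of -1.0 and -1.03.

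Fau, outside the rule by its symbol, encodes the last of the 40S proteins as a fusion with a ubiquitin-like protein. It had log2 values of 14.41 and 14.42, 14.54 and 14.55, and 13.47 and 13.36 in unstimulated, ROS and LPS cells. The changes were 0.13 ± 0.11 after ROS (adjusted p = 0.386) and -0.999 ± 0.11 after LPS (adjusted p = 0.000671), close to the median of the 56 genes. Without the 4 paralogs Rpl3l, Rpl7l1, Rpl36al and Rps27l, 44 of 52 genes fell after LPS and 1 rose, with a median of -0.99.

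Other genes of protein synthesis were read on the same arrays, from broad lists of genes by function. Their counts stand beside 21.8% of all genes higher and 18% lower after ROS, and 24.7% higher and 29% lower after LPS, in the fit with quantile scaling. After LPS 868 of all 7896 genes rose and 4179 fell under median scaling, and 615 rose and 5182 fell with no scaling. After ROS 1363 rose and 1736 fell under median scaling, and 1021 rose and 2087 fell with no scaling. The mitochondrial ribosome is built from a separate set of proteins, and of its 69 measured genes 16 rose and 16 fell after LPS, with a median of -0.02. Under median scaling 1 rose and 38 fell (median -0.49), and with no scaling 0 rose and 49 fell (median -0.73). After ROS 22 rose and 2 fell, with a median of 0.22. The counts became 16 and 2 under median scaling (median 0.11) and 10 and 6 with no scaling (median 0.01). Mrps6 and Mrpl49 rose most after ROS, by 1.33 ± 0.15 and 1.28 ± 0.12 (adjusted p = 0.00139 and 0.000718).

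The list of translation elongation genes also holds genes that do not encode elongation factors, Naca and Eef1e1 among them. Of its 12 measured genes 7 fell and 2 rose after LPS, with a median of -0.66. Under median and no scaling 0 rose and 8 and 10 fell (medians -0.96 and -1.20). Naca, which shields nascent chains at the ribosome, and Eef1d, a subunit of the exchange factor of elongation factor 1, changed by -1.24 ± 0.17 and -1.10 ± 0.14 (adjusted p = 0.00183 and 0.00124), and Eef2k, the kinase that inhibits elongation factor 2, was at least 1.89-fold lower. After ROS 3 rose and 0 fell (median 0.12), against 2 and 1 under median scaling and 2 and 2 with no scaling (medians 0.0029 and -0.10). The genes that rose included Eef1e1 (1.01 ± 0.13) and Eif5a (0.83 ± 0.13), with adjusted p = 0.00255 and 0.00448. Of 24 initiation factor genes 10 fell and 3 rose after LPS (median -0.05). Under median scaling 14 fell and 1 rose (median -0.56), and with no scaling 17 fell and 1 rose (median -0.80). Among them were Eif3f at -1.35 ± 0.12 and Eif6, which keeps free 60S subunits from joining 40S subunits, at 1.48 ± 0.11 (adjusted p = 0.000304 and 0.000162). Eif4b changed by -1.83 ± 0.39 but was detected on 1 of the 2 LPS arrays. After ROS 7 of the 24 genes rose and 0 fell (median 0.18), against 4 and 2 under median scaling (median 0.03) and 3 and 5 with no scaling (median -0.07).

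Ribosome biogenesis factors, which process ribosomal RNA and assemble the subunits, were the list with the most rises after ROS. Of 80 measured genes 44 rose after ROS and 0 fell, with a median of 0.55 (0.47 and 0.36 under median and no scaling, where 37 and 27 rose and 0 and 1 fell). Nop58, Noc4l and Nop56 rose most. Nop56, a core protein of the particles that methylate ribosomal RNA, had log2 values of 7.96 and 8.19 in unstimulated, 9.49 and 9.55 in ROS and 8.68 and 8.63 in LPS cells. The 3 groups were separate, with a change of 1.45 ± 0.13 after ROS (adjusted p = 0.00058), and Nop58 and Noc4l changed by 1.69 ± 0.21 and 1.59 ± 0.14 (adjusted p = 0.00197 and 0.000603). After LPS 12 rose and 14 fell (median -0.02). Under median scaling, where 4179 of all 7896 genes fell, 1 of the list rose and 43 fell (median -0.50). With no scaling, where 5182 of all genes fell, 1 of the list rose and 59 fell (median -0.74). Among these genes were the abundant nucleolar protein gene Npm1 at -1.24 ± 0.13 and Sbds, which helps to release Eif6 from new subunits, at 1.05 ± 0.11 (adjusted p = 0.000516 and 0.000519). The difference between this list and the ribosomal protein genes was not tested as such.

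**Figure D5:**
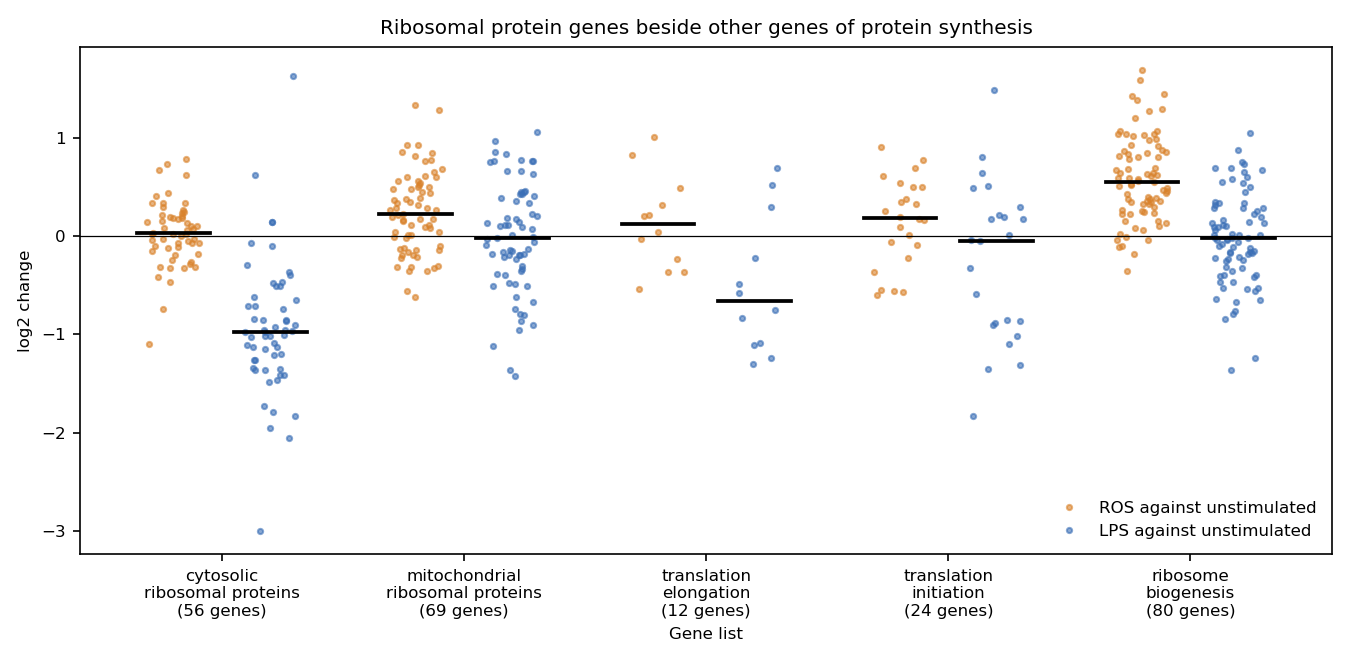
log2 change of single genes (points) after ROS (orange) and after LPS (blue) against unstimulated cells for the ribosomal protein genes and 4 other lists, with the median of each as a black line. The ribosomal protein genes have medians of 0.03 and -0.97 and the ribosome biogenesis genes of 0.55 and -0.02. Under the other scalings the ROS median of the ribosomal protein genes and, with no scaling, those of elongation and initiation genes fell below 0.

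Genes that control translation changed in both directions. In the list of mTOR and S6 kinase genes 3 of 17 tested rose and 5 fell after ROS, and 1 rose and 6 fell after LPS. Of all genes 21.8% rose and 18% fell after ROS, and 24.7% rose and 29% fell after LPS. Under median and no scaling the ROS counts of the list were the same. After LPS 0 of the list then rose and 11 and 15 fell, where 4179 and 5182 of all 7896 genes fell. Eif4ebp1, the repressor of cap-dependent translation that mTOR inactivates, had log2 values of 10.72 and 10.84 in unstimulated, 8.06 and 7.79 in ROS and 9.99 and 10.16 in LPS cells. The ROS arrays were far below the others, with a change of -2.85 ± 0.14 (adjusted p = 0.000122), and the change after LPS was -0.70 ± 0.14 (adjusted p = 0.00789). Pdcd4, an inhibitor of initiation that S6 kinase marks for degradation, rose after ROS by 0.85 ± 0.13 (adjusted p = 0.0039) and was at least 2.32-fold lower after LPS (adjusted p = 0.000128). Of 6 tested genes of MYC, which drives transcription of ribosomal genes, and its partners, 1 rose and 1 fell after ROS, and 2 rose and 3 fell after LPS. Mycl rose by 2.32 ± 0.18 after ROS (adjusted p = 0.000414) and was at least 4.66-fold lower after LPS (adjusted p = 0.000188). Mnt changed by -0.55 ± 0.13 after ROS (adjusted p = 0.0216), a call lost in 7 of 15 alternatives. After LPS Mxd1 rose by 1.18 ± 0.12 and Max by 0.96 ± 0.11 (adjusted p = 0.000519 and 0.000946). Mxd1 was detected on 1 of the 2 unstimulated arrays.

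The share of promoters with short motifs of general transcription factors is given as a description of letters, not of binding. Counted on both strands of the 300 bases, with none of these motifs contained in another, CCGGAAG of the ETS family was in 35.4% of the 48 promoters and 9.12% of all, GGGCGG of SP1 in 60.4% and 35.9%, and CTTTCC in 47.9% and 26.3%. AAGATGGC of YY1 was in 10.4% and 2.88%, the longer ZBTB33 motif in 6.25% and 0.496%, and the E-box CACGTG in 8.33% and 7.24%. TATAAA went the other way, at 8.33% and 14.2%. The windows of Rpl24, Rpl5 and Rpl3l printed above held none of these 7 motifs. The LPS changes of genes with and without the pyrimidine start overlapped. The 8 genes with a C and 4 pyrimidines ranged from -1.48 to 0.14 with a median of -0.96, and the 40 without it from -3.00 to 1.63 with a median of -1.01. The 40 include genes with long pyrimidine runs at the annotated start, such as Rpl7a (21 bases) and Rpl27a (20 bases). This split thus does not separate genes with and without such runs.

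Markers of cell types changed in both directions after LPS, where most ribosomal protein genes fell. Of 10 listed neutrophil and precursor genes 9 had a probe and all 9 fell, and their summed raw signal was 59878 to 62921 on unstimulated, 37317 to 40923 on ROS and 2831 to 2951 on LPS arrays. The 10 dendritic cell markers summed to 121079 to 139396, 46866 to 49146 and 47728 to 50692, with 0 rises and 7 falls after LPS and 3 rises and 5 falls after ROS. The 7 macrophage markers gave 36118 to 36969, 11132 to 14992 and 17960 to 18361, and the 4 mast cell and basophil markers 2368 to 2806, 7275 to 7832 and 12238 to 13098. Of those 4, 3 rose and 0 fell after ROS, while after LPS 3 fell and 1, Hdc, rose by 4.46 ± 0.13 (adjusted p = 6.83e-06), so that the summed LPS signal was mostly that of Hdc. The 3 stromal markers gave 712 to 725, 568 to 599 and 2435 to 2740, and the 3 natural killer cell markers 685 to 763, 771 to 821 and 522 to 537. All these sums include background, with a mean of 141 to 154 per probe. The natural killer cell sums, and the stromal sums of unstimulated and ROS arrays, were thus largely background. The 1 measured erythroid marker, Hba-a1, gave 1368 to 1477, 1614 to 1631 and 363 to 376. T and B cell markers were not analysed here. The part of these cell types in the results for ribosomal protein genes was not tested.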

How the data were processed

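Biotin-labelled cRNA made from total RNA was read on 1-colour Illumina bead arrays, per the labels' protocols. The deposited signal table gives the intensity of 25697 probes on 6 arrays, for which the submitters' processing notes name GenomeStudio 2009.2, with detection p-values for 5 arrays deposited by the authors. The handling of background in it was not given in the sources used here. The authors' deposited log2 table holds 11220 quantile-normalised probes, each detected on at least 3 arrays, and served to recover the detection limit of LPS 2. The background mean and SD of LPS 2, which has no detection p-values, were set from its signals with averages over the 5 arrays that have them.

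Intensities were background-corrected with normexp (limma 3.58.1 in R 4.3.3), an offset of 16 was added, and quantile normalisation and log2 followed. Probes with detection p under 0.05 on both arrays of a group were kept (11622 probes, 7896 genes). One limma fit with a coefficient per group (3 residual and 3.02 prior degrees of freedom) gave the comparisons, and genes were called at an adjusted p under 0.05 (Benjamini-Hochberg over all kept probes). A gene below background throughout a group has only a bound, set against the lowest detected signal. The number of arrays limits the precision.

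The platform annotation gave 10558 probes of the log2 table a single symbol, 0 several and 662 none, and 10551 matched RefSeq. Genes named were, per comparison, the 6 largest called rises and falls, the 3 nearest the median, the stalk, paralog, fusion and outside-role lists, genes whose other probes differed, and up to 3 called genes of each other list. Other members were named after their values were seen, to account for genes that did not pass and to show parent genes and single probes. Members and lists were chosen with earlier results of these data known. The fit was tested on simulated data. Alternatives changed the scaling, background correction, offset, filter, probe choice and source table, added the replicate number as a block, or left out 1 array.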

Additional observations from a re-analysis of the deposited data

How the results depend on the processing

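The falls after LPS kept their count within 1.5 times under all alternatives run: 40 to 53 of the 56 genes fell after LPS or were lower than after ROS. The medians moved most with the scaling, to -1.22 under median scaling and -1.46 with no scaling after LPS, and to -1.15 and -1.28 for LPS against ROS. Otherwise they stayed between -1.04 and -0.925 and between -1.07 and -0.906. The count of rises after LPS went from 2 to 1 under both scalings, since Rpl7l1 gave 0.13 and -0.11, and that of genes higher in LPS than in ROS cells went from 1 to 0 with no scaling. The counts after ROS depended on the setting. The 5 rises became 3 under median scaling, 2 with no scaling, 11 with no background correction, 3 with an offset of 1, 3 with no filter and 11 on the authors' log2 values. The 3 falls became 6, 10, 7, 1, 1 and 8 in the same order. The counts of all 7896 genes moved as well. Their 1724 rises became 1363, 1021, 2020, 1559, 1372 and 2049 in that order, and their 1422 falls 1736, 2087, 1598, 1299, 1177 and 1613. The ROS median of 0.03 turned to -0.13, -0.23 and, with the median of all genes subtracted, -0.025. Why the other settings moved the ROS counts was not tested. Leaving out 1 array at a time gave 2 to 4 rises and 0 to 3 falls after ROS with medians of 0.0036 to 0.059, 40 to 46 falls after LPS, and 42 to 46 genes lower in LPS than in ROS cells. The lowest ROS counts came without unstimulated 2 (2 rises, 0 falls) and without unstimulated 1 (2 and 1). Without ROS 1 there were 3 and 1, and without ROS 2 the falls were 1. Where an array was left out, the lone one was assumed to vary like the other groups.

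The replicate numbers did not pair the arrays, as the deviations from the group means correlated at -0.10, 0.02 and -0.02. With a replicate block in the fit, 4 genes rose and 2 fell after ROS, and 2 rose and 46 fell after LPS. Over the single genes and alternatives, calls were lost 52 times after ROS, 12 times after LPS and 10 times for LPS against ROS. They were gained 12, 7 and 11 times in the same order. Values that did not pass in the main setting changed sign 34 times after ROS and 2 times after LPS. With 2 arrays per group and 3 residual degrees of freedom, the smallest ROS change among the 56 genes that passed was 0.41 on the log2 scale (Rpl23a). The probes of Rpl21 and Rpl7a lie near the detection limit, and that of Rplp1 near the highest signals of the arrays.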
